A study of Drosophila melanogaster with 8 samples.

Results

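The expression of 9 genes of the defense against reactive oxygen was followed in the Malpighian tubules, the excretory organs of the fly, of *Drosophila melanogaster*. The genes were chosen by their CG numbers: Sod1 (CG11793), Sod2 (CG8905), Cat (CG6871), Jafrac1 (CG1633), Trxr-1 (CG2151), Gclc (CG2259), Gclm (CG4919), Keap1 (CG3962) and Duox (CG3131). All 9 were found among the 13942 genes in the deposited tables, and all 9 were among the 12580 genes that had at least 12 reads over the libraries and were tested. RNA-seq was carried out on tubules of adult males and females from a European population (The Netherlands) and an African population (Zimbabwe). The 4 groups were European males, European females, African males and African females, each with 2 libraries labeled as replicates, so that 4 male libraries were set against 4 female ones and 4 European libraries against 4 African ones. All groups were kept on cornmeal-molasses food at 22° with 14 h of light and 10 h of dark, and neither an engineered allele nor a treatment is named for any group. The labels give an age of 2 to 4 days, whereas the methods of the study give older flies. Each library pooled tubules from several isofemale lines of its population, so the levels are averages over lines, and differences among lines cannot be read from them.

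The cell removes reactive oxygen in steps. Superoxide dismutases turn superoxide into hydrogen peroxide, which catalase breaks down to water and oxygen and peroxiredoxins reduce with electrons passed on from thioredoxin. Glutathione, made in a first step by glutamate-cysteine ligase, is the other main reducing pool, and in insects, which have no glutathione reductase, thioredoxin reductase also serves to keep it reduced. The transcription factor CncC, held in check by Keap1, switches on many of these genes, and the tubule, which clears foreign compounds from the body, is known to express many of them.

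Each library held 19528634 to 27099855 reads assigned to genes, and in each group replicate 2 was deeper than replicate 1. All 5 principal cell markers and all 5 stellate cell markers were detected in every library, with summed levels of 3433 to 5878 RPKM (reads scaled to transcript length and library size) and 230 to 287 RPKM. Markers of some other tissues moved with sex. The summed level of 5 testis markers was 6.36 to 55.1 RPKM in males and 1.03 to 1.56 RPKM in females, and that of 5 fat body markers, which include the yolk protein genes, was 12.6 to 30.4 RPKM in males and 849 to 1696 RPKM in females. The 6 midgut markers summed to 1444 and 246 RPKM in the African males libraries and to 15.7 to 51.6 RPKM in the other 6. The sexes overlapped in the sum of the accessory gland markers, at 3.18 to 19.7 RPKM in males and 0.165 to 9.35 RPKM in females. They also overlapped in that of the ovary markers, at 0.968 to 13.7 RPKM and 2.59 to 15.6 RPKM, and in those of the neuron and muscle markers.

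The 9 genes covered a wide range of levels. Cat, which encodes catalase, was the most abundant at 1406 ± 155 RPKM (SD over 8 libraries) and ranked 56 among all genes tested. Sod1, the copper-zinc superoxide dismutase of the cytosol, followed at 573 ± 44.3 RPKM, and Trxr-1, the thioredoxin reductase, at 355 ± 22.5 RPKM. Jafrac1, a cytosolic peroxiredoxin, averaged 273 ± 39.2 RPKM.

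Next came Gclc, the catalytic subunit of glutamate-cysteine ligase, at 164 ± 14.2 RPKM, Sod2, the manganese superoxide dismutase of mitochondria, at 145 ± 13.2 RPKM, and Gclm, the modifier subunit of the ligase, at 102 ± 23.5 RPKM. Keap1 was far lower at 10.4 ± 1.39 RPKM. Duox, an oxidase that makes hydrogen peroxide rather than removing it, had 0.210 ± 0.141 RPKM, from 210 reads in all 8 libraries together, and ranked 10537. The ranges of neighboring genes in this order overlapped for Trxr-1 and Jafrac1, for Gclc and Sod2, and for Sod2 and Gclm. Within libraries, however, the order was the same in all 8 except for Gclc over Sod2, which held in 6.

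**Figure D1:**
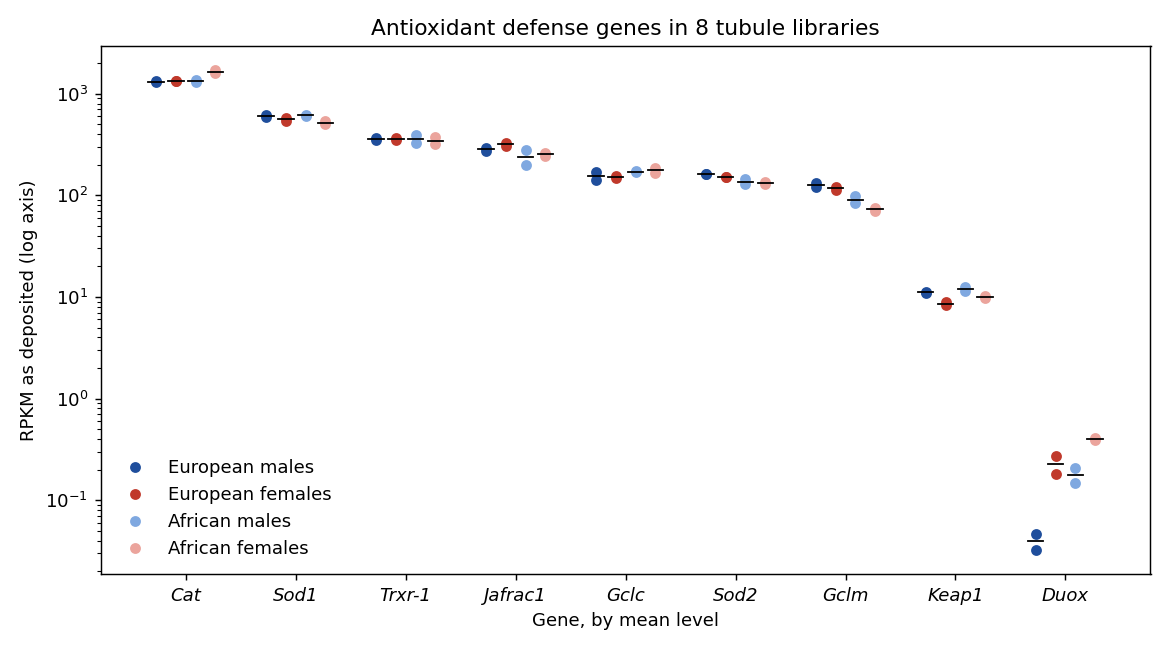
RPKM of the 9 genes in each library (points, log axis) by sex and population, with the mean of the 2 replicates of a group as a bar; genes are ordered by mean level. Cat lay between 1291 and 1712 RPKM in every library, while Duox did not exceed 0.407 RPKM and was lowest in both European males libraries.

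The genes also differed in how much they varied. The highest library exceeded the lowest by 1.21-fold for Trxr-1, 1.24-fold for Sod1, 1.27-fold for Sod2, 1.31-fold for Gclc and 1.33-fold for Cat. Keap1, Jafrac1 and Gclm varied more, with ratios of 1.49, 1.64 and 1.87, and Duox most, with 12.6. Replicates of one group were close: the median absolute log2 difference between the replicates over the 9 genes was 0.07 in European males, 0.09 in European females, 0.15 in African males and 0.13 in African females, against 0.15, 0.15, 0.19 and 0.16 over all genes tested. The widest replicate gap among the 8 better expressed genes was that of Jafrac1 in African males, at 0.40 on the log2 scale.

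For the comparison of the sexes, Keap1 was male-biased and Duox was female-biased, and the other 7 genes did not pass a false discovery rate (FDR) of 5%. Keap1 was 1.26-fold higher in males, and Duox had a fitted level 2.03-fold higher in females. These 2 of 9 genes stand beside 11.7% of all genes tested that were called for sex, 7.62% as male-biased (958 genes) and 4.12% as female-biased (518 genes). The median log2 fold change, male over female, was 0.05 over the 9 genes and 0.01 over all genes tested.

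Of the superoxide dismutases, Sod1 had 596 and 618 RPKM in European males and 615 and 609 RPKM in African males, against 539 and 578 RPKM in European females and 499.7 and 533 RPKM in African females. All 4 male libraries lay above all 4 female libraries, as they also did for Keap1. This pattern was seen in 2 of the 9 genes and in 7.37% of all genes tested, and the reverse, all male libraries below all female ones, in 0 of the 9 and in 6.88%. Sod1 thus had a log2 fold change, male over female, of 0.21 ± 0.06 (SE), with adjusted p = 0.058 in limma. It passed in 3 alternatives, at 0.038 with the replicate number as a block, 0.042 with library size alone and 0.046 with median-of-ratios factors. Sod1 missed the threshold in the other 5 alternatives that kept all libraries, at up to 0.113 without the intensity trend. It also missed the threshold when any one of the 8 libraries was left out. Sod2 had 162 and 161 RPKM in European males and 144 and 128 RPKM in African males, against 149.7 and 151 RPKM in European females and 131 and 134 RPKM in African females. Here the sexes overlapped, and the log2 fold change of 0.10 ± 0.03 (SE) had adjusted p = 0.116.

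Of the genes that deal with hydrogen peroxide, Cat had 1344 and 1291 RPKM in European males and 1292 and 1377 RPKM in African males, against 1326 and 1326 RPKM in European females and 1580.4 and 1712 RPKM in African females. Both African females libraries stood above the other 6, which lay between 1291 and 1377 RPKM. Cat did not pass, with a log2 fold change of -0.13 ± 0.08 (SE) and adjusted p = 0.322. Jafrac1 had 293 and 273 RPKM in European males and 281 and 200.1 RPKM in African males, against 305 and 328 RPKM in European females and 259.8 and 245 RPKM in African females. The sexes overlapped, with African males replicate 2 lowest of all, and the log2 fold change of -0.10 ± 0.09 (SE) had adjusted p = 0.503.

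Trxr-1 had 364 and 352 RPKM in European males and 388 and 330.2 RPKM in African males, against 348 and 368 RPKM in European females and 319.6 and 372 RPKM in African females. The highest and the lowest library were both African, one of each sex, and the log2 fold change of 0.05 ± 0.07 (SE) had adjusted p = 0.685. Exons of Trxr-1 overlap those of sni on the opposite strand in the current annotation. No source used here gives whether reads were assigned by strand, so reads of these neighbors may be shared.

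Neither subunit of glutamate-cysteine ligase passed for sex. Gclc averaged 163 ± 14.0 RPKM in males and 164 ± 16.6 RPKM in females (SD, n = 4 each), with a log2 fold change of 0.02 ± 0.06 (SE) and adjusted p = 0.902 in limma. Gclm averaged 109 ± 22.3 RPKM in males and 95.1 ± 25.7 RPKM in females (SD, n = 4 each). In both populations both male libraries of Gclm lay above both female libraries, but the sexes overlapped once the populations were joined, and the log2 fold change of 0.24 ± 0.07 (SE) had adjusted p = 0.061.

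Keap1, the sensor that marks CncC for degradation, had 10.9 and 11.3 RPKM in European males and 11.5 and 12.5 RPKM in African males, against 8.37 and 8.87 RPKM in European females and 9.76 and 10.3 RPKM in African females. All 4 male libraries lay above all 4 female libraries. Keap1 had a log2 fold change of 0.33 ± 0.06 (SE), with adjusted p = 0.018 in limma, and the difference had the same sign within Europe (0.37) and within Africa (0.30). It missed the threshold, at adjusted p of 0.052 to 0.062, when either European males library, either European females library or African females replicate 1 was left out. The 3 hemocyte markers, whose summed level was 7.60 to 11.3 RPKM in males and 5.24 to 6.33 RPKM in females, moved the same way, as did the testis markers, and their part in the difference was not tested. In whole tubules a lower number of cells of one type and less RNA per cell cannot be told apart, which holds for every gene described here.

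Duox had 0.047 and 0.032 RPKM in European males and 0.206 and 0.147 RPKM in African males, against 0.182 and 0.270 RPKM in European females and 0.392 and 0.407 RPKM in African females. These values rest on 9 reads in European males and 44 in African males, against 58 in European females and 99 in African females. The sexes overlapped only because African males replicate 1 was above European females replicate 1. The log2 fold change, on the scale of log2(RPKM + 0.1), was -1.02 ± 0.18 (SE), with adjusted p = 0.014 in limma. The size depends on how low values were treated, at -0.24 with 1 RPKM added in place of 0.1 and -1.53 with voom on the reads, while the call held in both and without any single library. The summed fat body markers were also higher in females, with 4 of the 5 called female-biased. They include the yolk protein genes, which the paper lists among its most female-biased genes, so the sum is not a measure of fat body amount. Their part was not tested. The midgut is a known site of Duox, and the midgut markers summed to 39.6 and 15.7 RPKM in European males and 1444 and 246 RPKM in African males, against 51.6 and 31.9 RPKM in European females and 36.2 and 23.6 RPKM in African females. Both Duox and these markers were thus higher in African than in European males, while Duox was highest in African females, where the markers were low. The part of the midgut was not tested.

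**Figure D2:**
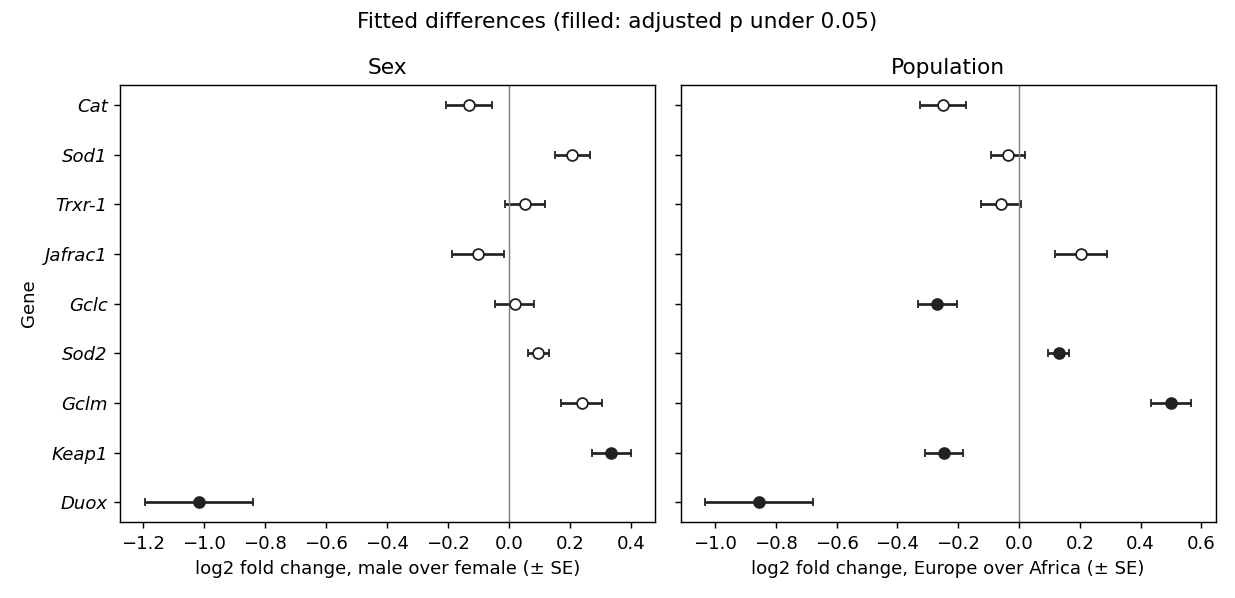
Fitted log2 fold changes (points) with standard errors (bars) of the 9 genes for sex, male over female, and population, Europe over Africa, each from 8 libraries; filled points have an adjusted p under 0.05. Keap1 at 0.33 and Duox at -1.02 are filled for sex, and 5 genes from Gclm at 0.50 to Duox at -0.86 are filled for population.

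For the comparison of the populations, 2 of the 9 genes were Europe-biased (Gclm and Sod2) and 3 were Africa-biased (Keap1, Gclc and Duox), beside 11.9% of all genes tested that were called, 6.53% as Europe-biased (821 genes) and 5.39% as Africa-biased (678 genes). Gclm had the largest difference of the well expressed genes, 1.41-fold higher in Europe. The differences of Sod2, Keap1 and Gclc were small, 1.09-fold higher in Europe for Sod2 and 1.19- and 1.20-fold higher in Africa for Keap1 and Gclc, and their adjusted p of 0.039 to 0.049 lay close to the threshold. With the replicate number as a block, 3 of the 9 genes passed (Gclm, Keap1 and Duox). When RPKM were scaled by library size alone, 3 passed (Gclm, Sod2 and Duox), and the split over all genes became 1523 Europe-biased to 447 Africa-biased, which is 77.3% rather than 54.8% Europe-biased, with a median log2 fold change of 0.08 in place of 0.01. The median over the 9 genes was -0.06, and 0.03 with library size alone.

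Gclm had 132 and 122 RPKM in European males and 114 and 120.4 RPKM in European females, against 98.2 and 83.2 RPKM in African males and 70.6 and 75.3 RPKM in African females. All 4 European libraries lay above all 4 African libraries, which was so for 2 of the 9 genes, the other being Sod2, and for 13.2% of all genes tested. The reverse, all European libraries below all African ones, was seen in 0 of the 9 and in 4.25%. For Gclm the log2 fold change, Europe over Africa, was 0.50 ± 0.07 (SE), with adjusted p = 0.0040 in limma, and was 0.39 in males and 0.61 in females. Gclm passed under every alternative and without any single library, at adjusted p of 0.002 to 0.018.

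Gclc, the partner of Gclm in the same enzyme, differed the other way. It had 168 and 143 RPKM in European males and 154 and 149 RPKM in European females, against 169 and 173 RPKM in African males and 168 and 186 RPKM in African females. The populations overlapped by a single library, European males replicate 1, which was slightly above African females replicate 1. With a log2 fold change of -0.27 ± 0.06 (SE), Gclc had adjusted p = 0.039 in limma. Gclc missed the threshold with the replicate block (0.056), with library size alone (0.087) and without the intensity trend (0.084). It also missed the threshold, at 0.052 to 0.109, when any one library other than African males replicate 1 or European males replicate 1 was left out.

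The ratio of Gclm to Gclc RPKM, which was chosen for display after the values had been seen and so was not tested, was 0.786 and 0.855 in European males and 0.738 and 0.810 in European females, against 0.580 and 0.481 in African males and 0.421 and 0.405 in African females. It averaged 0.797 ± 0.049 in Europe and 0.472 ± 0.079 in Africa (SD, n = 4 each). Gclc was thus above Gclm in all 8 libraries, but by less in Europe.

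**Figure D3:**
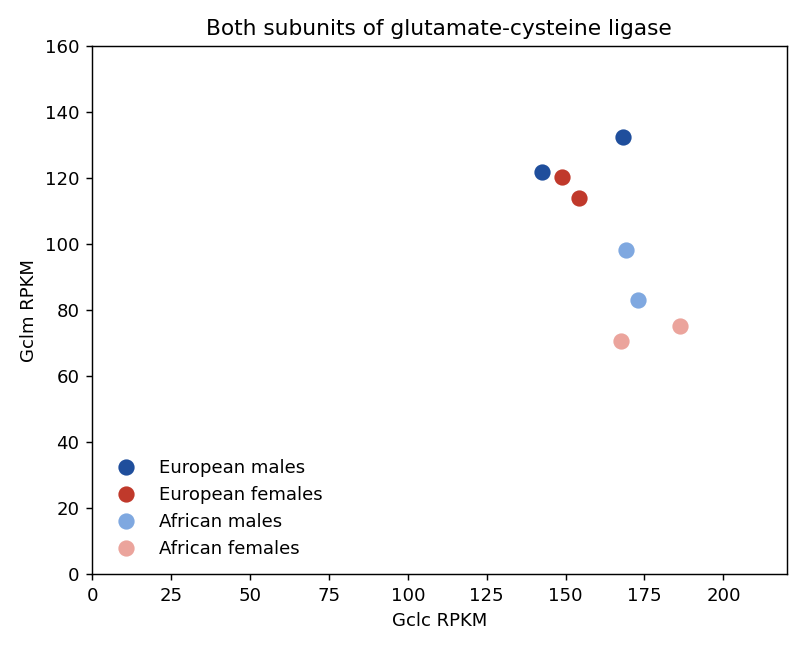
RPKM of the modifier subunit Gclm (vertical axis) against the catalytic subunit Gclc (horizontal axis) of glutamate-cysteine ligase, one point per library, colored by sex and population. The European libraries lie at 114 to 132 RPKM of Gclm and the African ones at 70.6 to 98.2 RPKM, while along the Gclc axis the populations meet at 168 RPKM.

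Sod2 averaged 156 ± 6.60 RPKM in Europe and 134 ± 7.15 RPKM in Africa (SD, n = 4 each), and all 4 European libraries lay above all 4 African ones, the closest being European females replicate 1 at 149.7 RPKM and African males replicate 1 at 144 RPKM. The log2 fold change of 0.13 ± 0.03 (SE) had adjusted p = 0.049 in limma and 0.064 with the replicate block. Sod2 missed the threshold in 5 of the 8 alternatives that kept all libraries, at up to 0.157 without the intensity trend. It missed the threshold, at 0.057 to 0.132, when any one of the 8 libraries was left out. The cytosolic Sod1 averaged 583 ± 33.4 RPKM in Europe and 564 ± 56.9 RPKM in Africa (SD, n = 4 each), and its log2 fold change of -0.04 ± 0.06 (SE), with adjusted p = 0.733, turned to 0.05 with library size alone.

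Keap1 averaged 9.87 ± 1.46 RPKM in Europe and 11.02 ± 1.23 RPKM in Africa (SD, n = 4 each). The populations overlapped because of the sex difference, but within each sex both European libraries lay below both African libraries. Its log2 fold change of -0.25 ± 0.06 (SE) had adjusted p = 0.047 in limma. Keap1 missed the threshold in 4 of the 8 alternatives that kept all libraries, at up to 0.084 with library size alone. It missed the threshold, at 0.087 to 0.122, when any one library other than African males replicate 1 was left out.

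Duox averaged 0.133 ± 0.114 RPKM in Europe and 0.288 ± 0.131 RPKM in Africa (SD, n = 4 each), and within each sex both European libraries were below both African libraries. Its log2 fold change of -0.86 ± 0.18 (SE) had adjusted p = 0.024 in limma, was -0.20 with 1 RPKM added and -1.20 with voom, and missed the threshold, at 0.053 to 0.074, when any one library other than African females replicate 1 or European females replicate 2 was left out. The summed level of the principal cell markers was 3433 to 3705 RPKM in Europe and 4095 to 5878 RPKM in Africa. That of the stellate cell markers was 230 to 254 RPKM in Europe and 269 to 287 RPKM in Africa. These sums were thus lower in Europe, as Keap1, Gclc and Duox were. Of the single markers, 0 of 5 for stellate cells and 1 of 5 for principal cells had a positive log2 fold change, Europe over Africa. In each list 1 of 5 markers was called lower in Europe. For 1 principal cell marker all European libraries lay above all African ones. The part of these markers in the population differences was not tested.

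The remaining genes did not pass for population in the main fit. Cat averaged 1322 ± 22.3 RPKM in Europe and 1490.3 ± 191 RPKM in Africa (SD, n = 4 each), with a log2 fold change of -0.25 ± 0.08 (SE) and adjusted p = 0.080 in limma. Jafrac1 averaged 299.7 ± 23.0 RPKM in Europe and 247 ± 34.3 RPKM in Africa (SD, n = 4 each), with 0.20 ± 0.09 (SE) and adjusted p = 0.174. Both log2 fold changes were larger in size when African males replicate 1 was left out, at -0.31 for Cat and 0.29 for Jafrac1. Both genes then passed the threshold. For Jafrac1 this library had 281 RPKM, against 200.1 RPKM in African males replicate 2. It also had the highest midgut markers, whose part was not tested. Trxr-1 averaged 358 ± 9.27 RPKM in Europe and 352 ± 32.8 RPKM in Africa (SD, n = 4 each), and its log2 fold change of -0.06 ± 0.07 (SE), with adjusted p = 0.607, turned to 0.03 with library size alone.

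Whether the sex bias differed between the populations was tested with an interaction term. None of the 9 genes passed (0 of 9 in limma and 0 of 9 with voom, with 0 and 1 at an unadjusted p under 0.05), and 0.0556% of all genes tested did. The lowest adjusted p was 0.724, for Gclm, whose log2 fold change, male over female, was 0.12 in Europe and 0.35 in Africa, a difference of -0.23 ± 0.11 (SE). For Cat the corresponding values were -0.0022 in Europe and -0.26 in Africa, a difference of 0.26 ± 0.13 (SE) with adjusted p = 0.729. For Sod1 they were 0.13 in Europe and 0.29 in Africa, a difference of -0.16 ± 0.10 (SE) with adjusted p = 0.836. Over the 9 genes the standard error of this difference ran from 0.07 for Sod2 to 0.35 for Duox, with 2 libraries in each group.

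For each gene with a called difference, the genes with the most similar profile over the 8 libraries were sought among 9785 genes with at least 100 reads, as the smallest root mean square difference of log2 RPKM centered on each gene's mean. Keap1 was closest to CG3902 (0.04) and CG6983 (0.06), against 0.22 for the deviation of Keap1 from its own mean. Gclm was closest to Inos (0.06), which encodes the enzyme that makes inositol phosphate from glucose phosphate, and to PH4alphaEFB (0.08), a prolyl hydroxylase subunit, against 0.29 for its own deviation. Gclc was closest to CG5674 (0.04) and egh (0.05) against 0.16, Sod2 to CG1236 (0.03) and CG2852 (0.03) against 0.09, and Duox to Jabba (0.26) and CG31689 (0.29) against 0.68. Many other genes were also closer to a member than a flat profile was. Of the 9785 genes these were 536 for Sod2, 1817 for Gclc, 2237 for Keap1, 2550 for Gclm and 4083 for Duox. No other member of the described set or of the lists below was among these nearest genes.

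Another 49 genes of antioxidant defense, in 8 lists, were set beside the 9. For sex, 13 were male-biased, 3 were female-biased and 33 did not pass, with a median log2 fold change of 0.10, beside the 7.62% male-biased and 4.12% female-biased of all genes tested. With the replicate block 15 were male-biased and 3 female-biased. The male-biased count was 7 without the intensity trend, 4 without European females replicate 2, 6 without European females replicate 1, 7 without African females replicate 1 and 8 without European males replicate 2. The female-biased count was 1 without European females replicate 2. Among the relatives of superoxide dismutase and catalase, Ccs, the copper chaperone that loads Sod1, was male-biased (log2 fold change 0.31, adjusted p = 0.013 in limma; the same quantities, in this order, are given in brackets for the genes that follow). It had 79.1 and 82.1 RPKM in European males and 74.9 and 79.1 RPKM in African males, against 65.0 and 70.2 RPKM in European females and 61.5 and 62.4 RPKM in African females, so that the sexes did not overlap, as for Sod1 itself. The catalase-like CG9314 was also male-biased (1.86, adjusted p = 0.012), at no more than 1.91 RPKM.

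Of 9 peroxiredoxins and sulfiredoxin, 4 were male-biased and none was female-biased, among them CG12896 (log2 fold change 0.56, adjusted p = 0.017), Prx6005 (0.28, 0.023) and Prx2540-2 (0.48, 0.025). CG12896 and Prx2540-2 have close copies, together with Prx2540-1, so reads may be assigned to the wrong copy. In the thioredoxin system of 8 genes, TrxT (2.56, 0.018) and CG8517 (3.84, 0.017) were male-biased and dhd (-4.57, 0.0015) was female-biased. TrxT and dhd are known as thioredoxins of the male and the female germline. The levels of TrxT, CG8517 and CG9314 moved with the testis markers. That of dhd was higher in females, as the summed fat body markers were. The summed ovary markers were 13.7 RPKM in African males replicate 1, where dhd had 1.53 RPKM. In African females replicate 2 they were 2.59 RPKM, where dhd had 17.2 RPKM. Of the 5 ovary markers, 0 had a positive log2 fold change, male over female, and the median was -1.36. For 2 of them all male libraries lay below all female ones, and 1 was called female-biased. The part of these tissues was not tested. Trx-2, the main thioredoxin, did not pass (-0.14, 0.223).

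In glutathione synthesis and use, 3 of 12 genes were male-biased and 1 was female-biased. Gss1, a glutathione synthetase, which acts in the step after Gclc and Gclm, had 304 and 312 RPKM in European males and 276 and 269 RPKM in African males, against 221 and 252 RPKM in European females and 186 and 208 RPKM in African females. All male libraries lay above all female ones, with a log2 fold change of 0.45 (adjusted p = 0.0078 in limma). Its near-identical copy Gss2 was at no more than 0.134 RPKM, and the division of reads between the copies is uncertain. Ggt-1, a gamma-glutamyl transpeptidase that breaks glutathione down, was female-biased (-0.42, 0.020), with 155 and 149 RPKM in European males and 121 and 118 RPKM in African males, against 171 and 208 RPKM in European females and 167 and 186 RPKM in African females. Grx1t, a glutaredoxin, was male-biased at no more than 1.48 RPKM (2.62, 0.0032) and moved with the testis markers, whose part was not tested.

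Of the 8 genes of the Keap1 and CncC pathway, 1 was called for sex, Sesn, which encodes sestrin (-0.40, 0.030). The level of cnc, the gene of CncC, was 47.6 to 53.4 RPKM in males and 48.5 to 52.9 RPKM in females, with a log2 fold change of 0.0047 (adjusted p = 0.956). GstD1, a glutathione S-transferase known as a target of CncC, had 1641 and 1217 RPKM in European males and 2028 and 1334 RPKM in African males, against 1111 and 1098 RPKM in European females and 1043 and 1053 RPKM in African females. The sexes did not overlap, but replicate 1 was well above replicate 2 in the males of both populations, and the log2 fold change of 0.53 had adjusted p = 0.056. Among the 4 genes of NADPH supply, Men (0.32, 0.025) and Idh (0.36, 0.024), the malic enzyme and isocitrate dehydrogenase that regenerate NADPH, were male-biased, while Zw and Pgd were not called. No methionine sulfoxide reductase was called for sex, nor was Nox or mol.

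For population, 5 of the 49 genes were Europe-biased, 1 was Africa-biased and 43 did not pass, with a median log2 fold change of 0.07, beside the 6.53% Europe-biased and 5.39% Africa-biased of all genes tested. With library size alone, 14 were Europe-biased and 1 Africa-biased, with the replicate block 5 and 2, and without the intensity trend 3 and 1. The Europe-biased count was 1 without European males replicate 2, 2 without European males replicate 1 or European females replicate 1, and 3 without European females replicate 2 or either African females library, while 3 were Africa-biased without African males replicate 1, and 2 without African females replicate 1 or European males replicate 2. Sod3, the extracellular superoxide dismutase, was Europe-biased (0.27, adjusted p = 0.040 in limma), as were Prx6005 (0.25, 0.030), Grx1t (1.30, 0.024), GstO1, an omega class glutathione S-transferase (0.74, 0.022), and DJ-1beta, a redox sensor related to the Parkinson disease protein DJ-1 (0.32, 0.0096). Grx1t moved with the testis markers for sex. These markers summed to 40.7 and 55.1 RPKM in European males and 17.8 and 6.36 RPKM in African males. In females they summed to 1.03 to 1.56 RPKM. Of the 5 testis markers, 0 were called for population, and their part was not tested. Pgd, which makes NADPH in the pentose phosphate pathway, was Africa-biased. It had 90.4 and 104 RPKM in European males and 90.6 and 111 RPKM in European females, against 162 and 167 RPKM in African males and 142 and 169.7 RPKM in African females. The populations did not overlap, with a log2 fold change of -0.78 (adjusted p = 0.0035). Zw, the enzyme just before Pgd in that pathway, did not pass (-0.14, 0.299). For the interaction, 0 of the 49 genes passed in limma and 0 with voom, with 8 and 6 at an unadjusted p under 0.05.

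**Figure D4:**
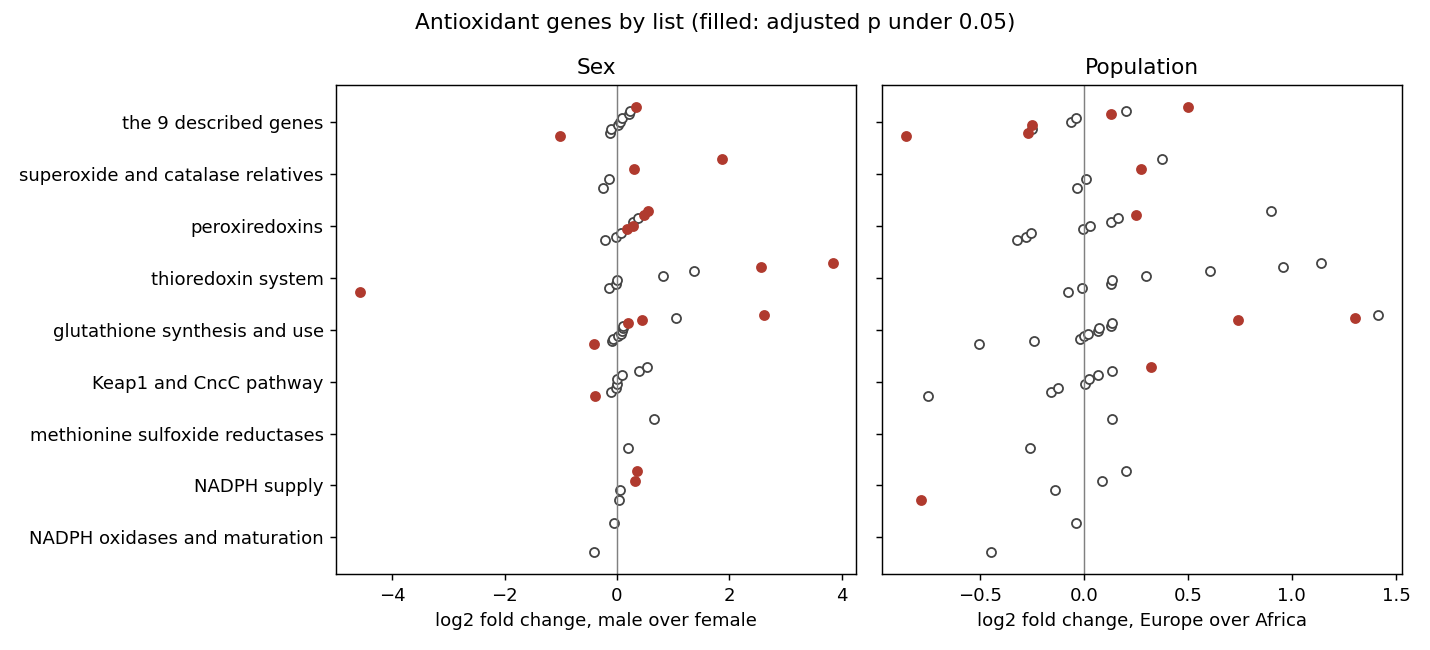
Log2 fold changes of the 9 described genes and of the 49 other antioxidant genes by list (one point per gene) for sex, male over female, and population, Europe over Africa; filled points have an adjusted p under 0.05. For sex, 13 of the 49 are filled to the right and 3 to the left, and for population 5 to the right and Pgd at -0.78 to the left.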

How the data were processed

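Poly(A) RNA from Malpighian tubules was sequenced as single reads of 50 bases. The authors mapped reads with NextGenMap to FlyBase transcripts (release 5.54), summed reads over the isoforms of a gene and deposited RPKM, for which the longest transcript gave the length. All values were whole reads when worked back (100% within 0.01 reads). Here RPKM of genes with at least 12 reads were scaled by TMM factors, which lay between 0.928 and 1.04 (trims 30% and 5%). The log2 of this value plus 0.1 entered limma 3.58.1 (R 4.3.3), with sex and population, or with their interaction, as terms and an intensity trend. P-values were adjusted by the Benjamini-Hochberg method over all genes tested. RPKM in the text are as deposited. The methods of the study describe both libraries of a group as biological replicates, each from its own dissected pool of tubules. They also state that RNA of all samples was extracted, and libraries were prepared, in parallel to avoid batch effects. The members and lists were chosen with earlier results of these data known. All 9 genes were named, with up to 3 called genes per other list and comparison and, for each called member, the 2 nearest profiles. Symbols were matched by gene ID or CG number.

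Whether replicate numbers pair the samples was checked over 9785 genes. Differences between replicates 1 and 2 correlated between all groups (0.137 to 0.468), so the samples may be paired by number. This comes from the data, not from the labels, and replicate 2 was also the deeper library in every group. The study modeled sex and population without a block for the replicate number. The main fit has none either, so its calls leave any such pairing aside. The fit with replicate number as a block was an alternative. The others were library size alone, median-of-ratios factors, 1 RPKM added, at least 1 or 100 reads, voom, no trend, and leaving out each library. Promoter sequences and motifs were not analysed here.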

Additional observations from a re-analysis of the deposited data

Results flagged for a closer look

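Gclc in European males replicate 2 stood apart from the other male libraries. It had 143 RPKM, against 168 RPKM in European males replicate 1 and 169 and 173 RPKM in African males, and this gap was 0.845 of the range of the 4 values, above Dixon's critical value. It was the only such case among 36 sets of 4 libraries examined over the 9 genes, where chance gives about 1 in 20.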

How the results depend on the processing

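Of 216 values of single genes under alternatives that kept all libraries, 196 kept their direction and side of the threshold, 12 lost the call, 4 gained it and 4 changed sign without a call. Those that changed sign were, with library size alone, Gclc for sex (-0.0067) and Sod1 (0.050) and Trxr-1 (0.027) for population, and, with 1 RPKM added, Duox for the interaction (0.019). The genes called for population numbered 3 with library size alone, with at least 1 read and with the replicate block, and 2 without the intensity trend, against 5. Those called for sex numbered 4 with median-of-ratios factors (Sod1 at adjusted p = 0.046 and Gclm at 0.049 in limma), against 2. Over all genes the interaction was called for 2 with library size alone, 1 with voom and 3 without the trend, against 7. The replicate block gained the call of Sod1 for sex and lost those of Sod2 and Gclc for population, and changed no other call of the 9 genes.

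With single libraries left out, 1 to 2 of the 9 genes were called for sex, 1 to 5 for population and 0 for the interaction. Over all genes the counts were 648 to 1351 for sex (648 to 949 without African females replicate 1 or any one European library, against 1476), 816 to 1408 for population (816 to 907 without any one European library, against 1499) and 0 to 9 for the interaction. Uncalled values that changed sign ranged from -0.0092 to 0.093 (Trxr-1) and -0.031 to 0.059 (Gclc) for sex, and for the interaction from -0.0070 to 0.074 (Sod2), -0.030 to 0.175 (Keap1), -0.214 to 0.042 (Trxr-1), -0.066 to 0.155 (Gclc) and -0.303 to 0.096 (Jafrac1). Without African males replicate 1, Cat and Jafrac1 gained the call for population, while Sod2 and Duox lost theirs. The cause of these changes was not tested. For Duox the number of reads limits the precision.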
